A study of Mus musculus with 3 samples.

Results

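The genes of the ATP-binding cassette (ABC) family were examined in mouse glomerular endothelial cells (GEC). The members were the probe sets that name a single gene whose symbol follows the pattern Abca to Abcg with a number, and an a or b where the symbol has one. They came to 49 probe sets for 48 genes, out of 21789 single-gene probe sets for 19938 genes. Abcb5 was the member with more than 1 probe set. The cells came from adult Tie2-GFP mice, Tg(TIE2GFP)287Sato on a mixed and mainly CD-1 background, with sex recorded as unknown and no treatment. Green fluorescent protein is under the promoter of Tek, an endothelial receptor, which can also be active in some blood cells. Glomeruli were sieved from the cortex of 1 kidney per array, dissociated and sorted for fluorescence, and amplified RNA was read on the Mouse Gene 1.0 ST array of Affymetrix. There were 3 arrays, labelled replicates 1, 3 and 5, and they form 1 group. The question was therefore which ABC genes were measured above a fixed level, and how far the arrays differed.

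ABC proteins share a cassette that binds and cleaves ATP, and most of them use it to move a substrate across a membrane. The A and G subfamilies include exporters of cholesterol and phospholipid, the B and C subfamilies the multidrug pumps and the exporters of conjugates, and the D subfamily carriers of fatty acyl groups into peroxisomes. The E and F subfamilies have the cassettes without a membrane part and act on ribosomes and translation. In endothelium the family is best known from the brain, where Abcb1a and Abcg2 return drugs to the blood.

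Levels are means of the deposited log2 signal ± SD over the arrays (n = 3). The first level tested was a signal of 100, which is 6.64 on the log2 scale and is the number the study used to remove low probe sets. The test was a moderated limma test over all single-gene probe sets with Benjamini-Hochberg adjustment, and "above" and "below" mean an adjusted p under 0.05. The second level was the 95th percentile of 1035 probe sets of olfactory receptor genes, 4.85 on the log2 scale, and is called the olfactory receptor level. Signals of different probe sets also depend on their probes, so each was set against these levels and not against the others. Each array is 1 kidney, and the samples are described as biologically independent, without saying whether they were of different litters. The p-values speak of these arrays alone, with a spread moderated by that of other probe sets. For the 32 of 49 ABC probe sets with the same value on all arrays, that spread is drawn from other probe sets. It is then lowered by their own lack of spread, so that ties count as precision.

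All 8 endothelial markers were above 100, where 15.8% of all single-gene probe sets were, among them Tek with 11.00, 10.18 and 10.77 on replicates 1, 3 and 5. Of other cell types, 3 of 4 podocyte markers, 5 of 5 of mesangium and smooth muscle, 6 of 6 of proximal tubule, 6 of 6 of leukocytes and 3 of 3 of red cells and platelets were below 100, as were 72.5% of all. Some of these were above the olfactory receptor level defined above, namely Nphs1, Wt1, Meis1, Slc34a1, Cd68 and Alas2, so RNA of these cell types was not shown to be absent. The podocyte marker above 100 was Podxl at 9.86 ± 0.08, which vascular endothelium also expresses. The defining tubule gene Slc34a1 was at 5.37 and Lrp2 at 4.33 on each array, and the leukocyte gene Ptprc at 4.94, 4.80 and 4.58. Fewer cells of a type and less RNA per cell cannot be told apart in such samples.

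Few ABC genes were measured above 100. By limma 3 of the 49 probe sets (6.12%) were above, where 15.8% of all single-gene probe sets were. They were Abcg2, Abce1 and Abcf1. A further 42 (85.7%) were below, against 72.5% of all, and 4 (8.16%) were neither, against 11.6%. Abce1 and the F subfamily are not membrane transporters. Without these 4 genes, 1 of 45 probe sets (2.22%) was above 100, and it was Abcg2. The median level of the ABC probe sets was 4.48, and that of all single-gene probe sets was 5.04.

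**Figure D1:**
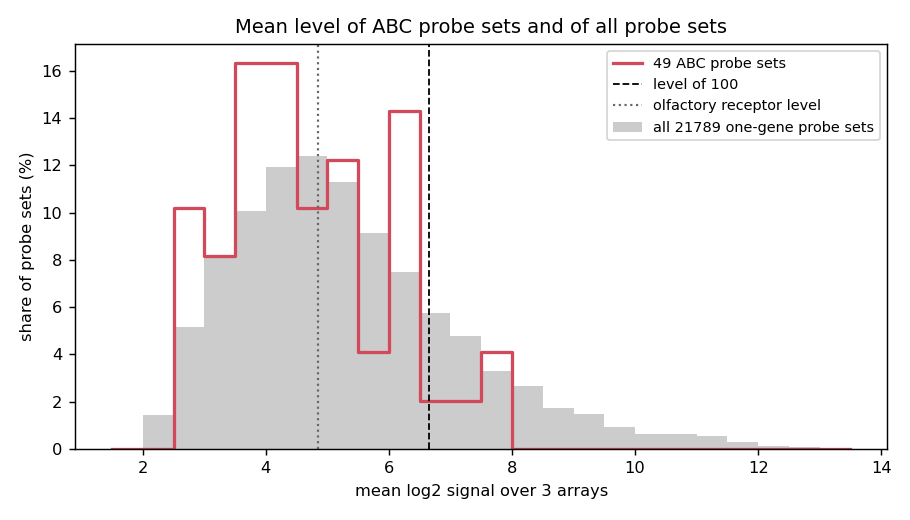
Share of probe sets (%, vertical axis) in bins of the mean log2 signal over 3 arrays (horizontal axis), for all 21789 single-gene probe sets (grey bars) and the 49 ABC probe sets (red line); vertical lines mark the level of 100 (6.64) and the olfactory receptor level (4.85). Most of the red line lies left of the dashed line, and no ABC probe set reaches a mean of 8.

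Against the olfactory receptor level 14 ABC probe sets (28.6%) were above, 24 (49.0%) below and 11 (22.4%) neither, while 44.4% of all probe sets were above, 36.2% below and 19.4% neither. The 14 were the 3 named above with Abcf2, Abcf3, Abca1, Abca3, Abca7, Abcc1, Abcc4, Abcc5, Abcd3, Abcd4 and Abcg1. Of the 42 probe sets below 100, 7 were above this level. Of the 10 probe sets with an Abcb symbol none was above this level, and 6 were below it. Tap1 and Tap2, whose symbols do not follow the pattern, are not among these and are given further on.

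**Figure D2:**
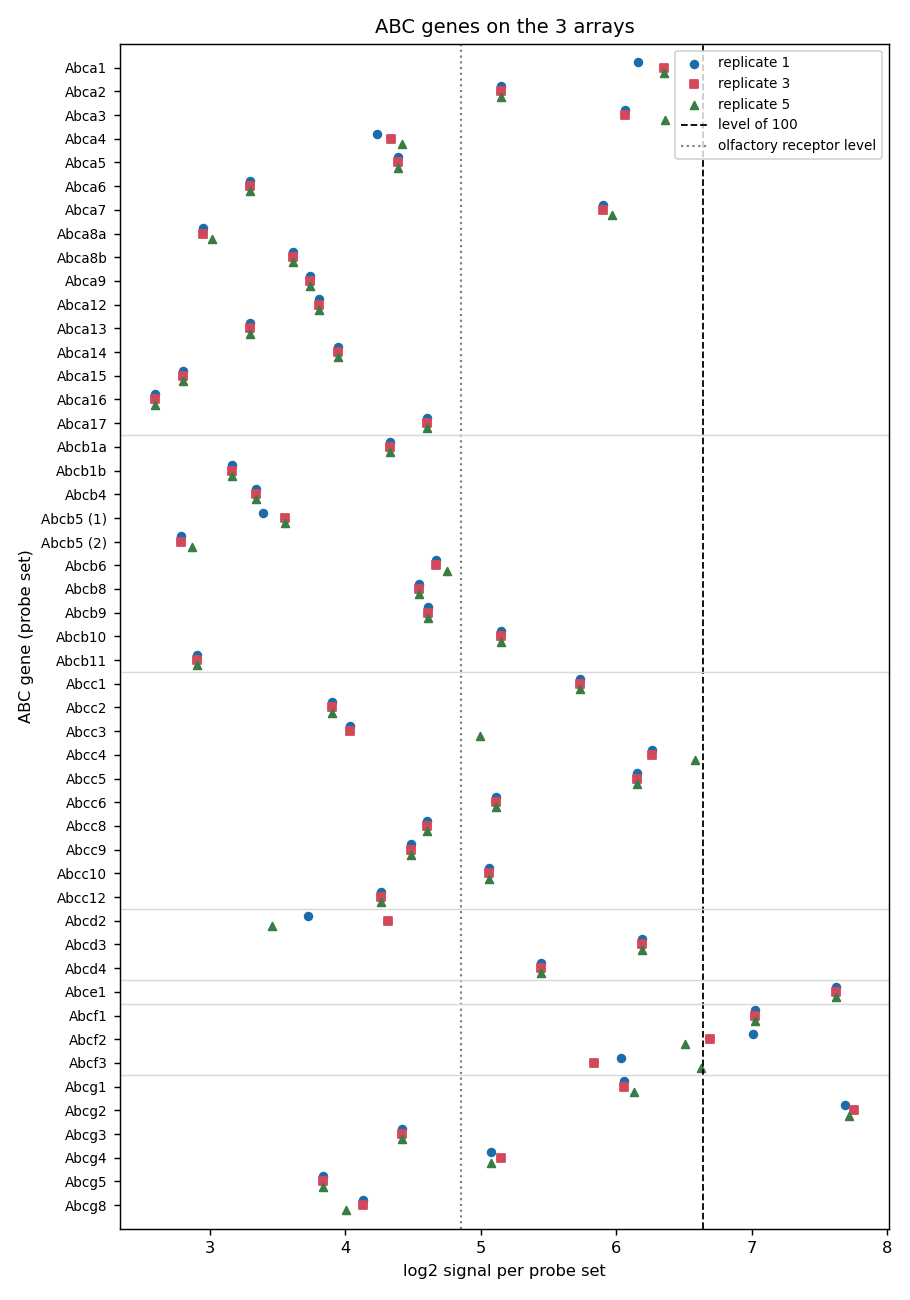
Log2 signal (horizontal axis) of each of the 49 ABC probe sets (rows, by subfamily) on replicates 1, 3 and 5 (circles, squares and triangles); the dashed line is the level of 100 and the dotted line the olfactory receptor level. Abcg2, Abce1 and Abcf1 lie right of the dashed line on all arrays, and markers at the same value are drawn one above the other.

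Among exporters of drugs and conjugates Abcg2 stood alone above 100. Abcg2, the breast cancer resistance protein, which exports urate, porphyrins and many drugs, had 7.69, 7.75 and 7.72 on replicates 1, 3 and 5. All arrays were above the level, by 1.08 ± 0.12 on the log2 scale (moderated SE, adjusted p = 0.00116 by limma). RefSeq gives Abcg2 several starts, and the array signal does not tell them apart. Those farthest apart are shown as the 250 bases before the start, read from RefSeq promoters on GRCm38.p6, to let the reader see how unlike they are; capitals mark CpG dinucleotides. The upstream one lies at chr6:58584283-58584532 and the downstream one at chr6:58640296-58640545, both on the plus strand, with 3 and 23 CpG dinucleotides.
Abcg2 upstream start: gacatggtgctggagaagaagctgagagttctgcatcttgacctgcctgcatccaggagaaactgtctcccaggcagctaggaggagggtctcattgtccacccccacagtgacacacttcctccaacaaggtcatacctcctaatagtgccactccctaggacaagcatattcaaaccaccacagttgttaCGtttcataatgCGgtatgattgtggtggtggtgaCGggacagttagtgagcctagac
Abcg2 downstream start: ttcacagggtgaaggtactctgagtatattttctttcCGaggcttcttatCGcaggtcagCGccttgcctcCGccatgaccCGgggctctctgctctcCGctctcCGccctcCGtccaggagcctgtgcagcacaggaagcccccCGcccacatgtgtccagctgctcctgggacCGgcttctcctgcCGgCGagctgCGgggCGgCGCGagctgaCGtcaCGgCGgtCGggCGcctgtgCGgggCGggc

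The P-glycoprotein genes, which encode the classic drug pump of the blood-brain barrier, were measured below both levels. Abcb1a was at 4.33 on each array (adjusted p = 0.000109 against 100), and Abcb1b at 3.17 on each array (adjusted p = 6.88e-05). Their neighbour Abcb4, which flips phosphatidylcholine into bile, was at 3.34 on each array. None of these values differed between arrays. The promoter of Abcb1a, at chr5:8566841-8567090 on the plus strand of GRCm38.p6, is shown beside those of Abcg2 because it holds no CpG dinucleotide and so no capitals.
Abcb1a: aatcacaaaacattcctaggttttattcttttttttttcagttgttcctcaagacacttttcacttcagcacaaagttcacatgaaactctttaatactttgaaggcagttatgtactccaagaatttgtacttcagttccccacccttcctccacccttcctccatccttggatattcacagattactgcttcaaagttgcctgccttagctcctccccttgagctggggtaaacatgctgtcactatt

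Of the multidrug resistance proteins of the C subfamily, Abcc1, Abcc4 and Abcc5 were above the olfactory receptor level and none was above 100. Abcc4, an exporter of cyclic nucleotides, urate and prostaglandins, had 6.27, 6.27 and 6.58. It was called neither (6.37 ± 0.18, adjusted p = 0.133 against 100), with replicate 5 closest to the level. Abcc5, another exporter of cyclic nucleotides, was at 6.15 on each array and Abcc1, which exports glutathione conjugates and leukotriene C4, at 5.73. Both were below 100 (adjusted p = 0.0168 and 0.00205) and above the olfactory receptor level (adjusted p = 0.00096 and 0.00307). Abcc2, the apical conjugate pump of liver and proximal tubule, was at 3.90 on each array. Abcc3, its basolateral relative, had 4.04, 4.04 and 4.99, so that replicate 5 alone was over the olfactory receptor level. Of the related genes Abcc6 was at 5.11, Abcc10 at 5.06 and Abcc12 at 4.27, each with 1 value on all arrays. With Abcg2, Abcb1a and Abcb1b these C subfamily genes made up the 11 exporters of drugs and conjugates. Of the 11, 1 was above 100 (Abcg2), 9 were below and 1 was neither (Abcc4). The shares over all single-gene probe sets were 15.8%, 72.5% and 11.6%.

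Of the 11 genes grouped under cholesterol and phospholipid transport, none was above 100, and 4 were above the olfactory receptor level. The shares over all single-gene probe sets were 15.8% and 44.4%. Abca1, which loads cholesterol and phospholipid onto apolipoprotein A-I, had 6.16, 6.35 and 6.35. It was called neither (6.29 ± 0.11, adjusted p = 0.0529), although all arrays were under 6.64. Abcg1, which passes cholesterol to high density lipoprotein, had 6.06, 6.06 and 6.13 and was below 100 (adjusted p = 0.0111). Its relative Abcg4, best known from brain, had 5.08, 5.15 and 5.08. The surfactant phospholipid transporter Abca3 had 6.06, 6.06 and 6.36, and was below 100 with adjusted p = 0.0279. That call was lost without replicate 1 (adjusted p = 0.0687). Abca7, related to Abca1, had 5.90, 5.90 and 5.97.

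Abca1, Abca3, Abca7 and Abcg1 were all above the olfactory receptor level, with adjusted p between 0.000893 and 0.00175 by limma. The remaining genes grouped with the lipid transporters by relatedness were lower. Abca2, a lipid transporter of myelinating cells, was at 5.15 on each array. The neighbours Abca8b, Abca8a, Abca9, Abca6 and Abca5, which follow each other on chromosome 11, were all below the olfactory receptor level, with means from 2.97 to 4.39. Genes of sterol and bile secretion were low as well. Abcg5 and Abcg8, which act as 1 dimer that secretes plant sterols and cholesterol, were at 3.84 and 4.09 ± 0.07, and the bile salt export pump gene Abcb11 was at 2.91. With Abcb4 these were 4 of 4 below the olfactory receptor level, where 36.2% of all single-gene probe sets were.

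ABC genes of mitochondria, lysosomes and peroxisomes were below 100 throughout, as were 72.5% of all single-gene probe sets. Abcd3, which encodes a major protein of the peroxisomal membrane, was at 6.19 on each array (adjusted p = 0.022 against 100) and above the olfactory receptor level (adjusted p = 0.000895). Abcd2, its relative that carries very long chain acyl groups, had 3.72, 4.32 and 3.46, highest on replicate 3 and under the olfactory receptor level on all arrays. Abcd4, which takes part in the release of vitamin B12 from lysosomes, was at 5.44. The mitochondrial genes Abcb10, which takes part in haem synthesis, and Abcb8 were at 5.15 and 4.54. Abcb6, linked to porphyrin transport, was at 4.70 ± 0.05 and the lysosomal peptide transporter gene Abcb9 at 4.61. These last 4 were neither above nor below the olfactory receptor level. The sulphonylurea receptor genes Abcc8 and Abcc9, whose products regulate ATP-sensitive potassium channels, were at 4.60 and 4.48.

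The 10 remaining transporter probe sets stand for genes known mainly from other tissues, such as Abca4 of the retina, Abca12 of skin and Abca14 to Abca17, described in testis. All were below 100, with means from 2.60 (Abca16) to 4.60 (Abca17), and 9 of the 10 were below the olfactory receptor level. The shares over all single-gene probe sets were 72.5% and 36.2%. The neighbours Abca14, Abca15 and Abca16 on chromosome 7 were among the 9. Both probe sets of Abcb5 were below, with means of 3.50 and 2.82.

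**Figure D3:**
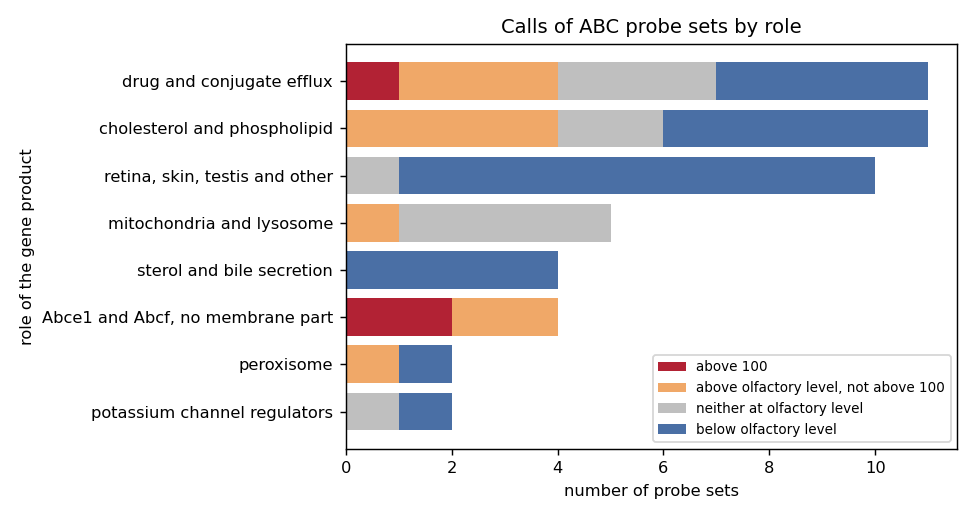
Number of ABC probe sets (horizontal axis) by role of the gene product (rows), coloured by the call at the level of 100 and at the olfactory receptor level. The 4 genes Abce1 and Abcf1 to Abcf3 have no blue part, and neither has the group of mitochondria and lysosome. In the group of retina, skin, testis and other genes 9 of 10 are blue.

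Of the ABC genes that act on ribosomes, Abce1 and Abcf1 were above 100, and Abcf2 and Abcf3 were called neither. Abce1, which splits ribosomes after translation ends, was at 7.62 on each array (adjusted p = 0.00158 by limma). Abcf1, which binds the initiation factor eIF2, was at 7.02 on each array. It was above 100 with adjusted p = 0.0363, a call lost without replicate 1 (0.0606), without replicate 5 (0.0572) and with a variance prior that follows the level (0.0692). Abcf2 had 7.01, 6.69 and 6.51, with 2 arrays over 6.64, and was called neither (adjusted p = 0.6). Abcf3, related to the yeast translation regulator Gcn20, had 6.04, 5.84 and 6.63 and was called neither (adjusted p = 0.0878). Without replicate 5 it was below 100 (adjusted p = 0.0153). All 4 were above the olfactory receptor level, as were 44.4% of all single-gene probe sets. The promoters of Abce1 (chr8:79711741-79711990, minus strand) and Abcf1 (chr17:35969751-35970000, minus strand) on GRCm38.p6 are shown as the other genes above 100, with CpG dinucleotides in capitals.
Abce1: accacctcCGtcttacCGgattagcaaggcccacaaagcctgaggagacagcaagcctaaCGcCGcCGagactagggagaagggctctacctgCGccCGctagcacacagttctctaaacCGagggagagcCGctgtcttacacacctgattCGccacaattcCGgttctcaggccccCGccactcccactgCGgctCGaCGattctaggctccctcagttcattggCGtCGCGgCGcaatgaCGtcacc
Abcf1: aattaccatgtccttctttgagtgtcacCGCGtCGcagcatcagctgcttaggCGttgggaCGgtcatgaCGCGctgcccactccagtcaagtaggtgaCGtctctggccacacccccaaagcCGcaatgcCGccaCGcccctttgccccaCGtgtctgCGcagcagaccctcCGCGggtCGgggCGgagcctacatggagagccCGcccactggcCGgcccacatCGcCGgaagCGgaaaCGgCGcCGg

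Promoters of the ABC genes differed in CpG content along with the level. RefSeq promoters were found for 38 of the 48 genes, and the count is that of the start with the most CpG dinucleotides in its 250 bases. The 11 such genes above the olfactory receptor level had a median of 23 CpG dinucleotides, and 9 of them had 20 or more. The 6 that were neither had a median of 17 with 1 gene at 20 or more, and the 21 below had a median of 6 with 1 gene at 20 or more (Abca5 with 25). All genes showed the same order, counted in the same way over 15614 genes. The share with 20 or more was 41.4% of those above the olfactory receptor level, 26% of those neither and 13.1% of those below, with medians of 17, 12 and 4. Genes with several starts had more chances of a high count, genes are not independent replicates, and no test was made.

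**Figure D4:**
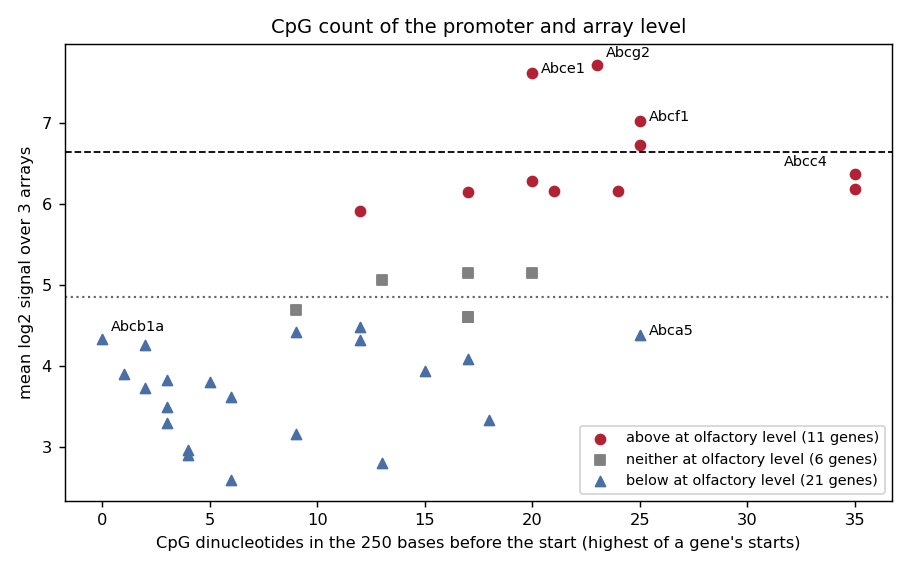
Mean log2 signal over 3 arrays (vertical axis) of 38 ABC genes against the number of CpG dinucleotides in the 250 bases before the start (horizontal axis, highest of a gene's starts); colours and markers give the call at the olfactory receptor level, the dashed line is the level of 100 and the dotted line the olfactory receptor level. The 11 genes above the olfactory receptor level have between 12 and 35 CpG dinucleotides, and Abcb1a has 0.

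Letters of known response elements were also counted on both strands of these windows. The core GCGTG bound by the dioxin receptor complex was in 13 of 45 ABC promoters and in 28.2% of all promoters. The antioxidant element TGACNNNGC was in 4 of 45, namely Abcc2, Abcc10 and both starts of Abcc4, and in 10.2% of all. Neither was in the 3 windows of Abcg2. The letters TATAAA were in 5 of 45 and in 12.4% of all. The letters of GCGTG and TGACNNNGC can overlap, and each motif was counted on its own.

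Many values were tied between arrays, to the last digit. Of the 49 probe sets 32 (65.3%) had the same value on all arrays, where 54.1% of all single-gene probe sets did. No ABC probe set had a range over 1 on the log2 scale between its highest and lowest array, where 5.73% of all did. With so many ties these ranges do not measure the spread between kidneys well. The widest ranges were those of Abcc3 (0.96), Abcd2 (0.85), Abcf3 (0.79) and Abcf2 (0.51). Of the 17 probe sets whose values differed, 10 (58.8%) were highest on replicate 5 alone, 3 on replicate 3 and 1 on replicate 1, with ties for 3. Over all probe sets whose values differed, 23.6% were highest on replicate 5 alone and 31% on replicate 3 alone. The genes highest on replicate 5 included Abcc3, Abcc4, Abcf3, Abca3, Abca7 and Abcg1. The others were Abca4, Abca8a, Abcb6 and the Abcb5 probe set with a mean of 2.82, all with means under the olfactory receptor level. For Abca7, Abcg1, Abca8a, Abcb6 and that Abcb5 probe set the range was small, from 0.067 to 0.08 on the log2 scale. The median of the 6 proximal tubule markers was 4.42, 4.58 and 4.74 on replicates 1, 3 and 5, and that of the 8 endothelial markers 10.76, 10.10 and 10.89. Of the tubule markers Kap was highest on replicate 5, with 4.05, 4.65 and 4.98, while Cubn was highest on replicate 3, Slc5a2 on replicate 1, and Lrp2, Slc34a1 and Slc22a6 had the same value on all arrays. The part of either cell type in the ABC values was not tested.

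**Figure D5:**
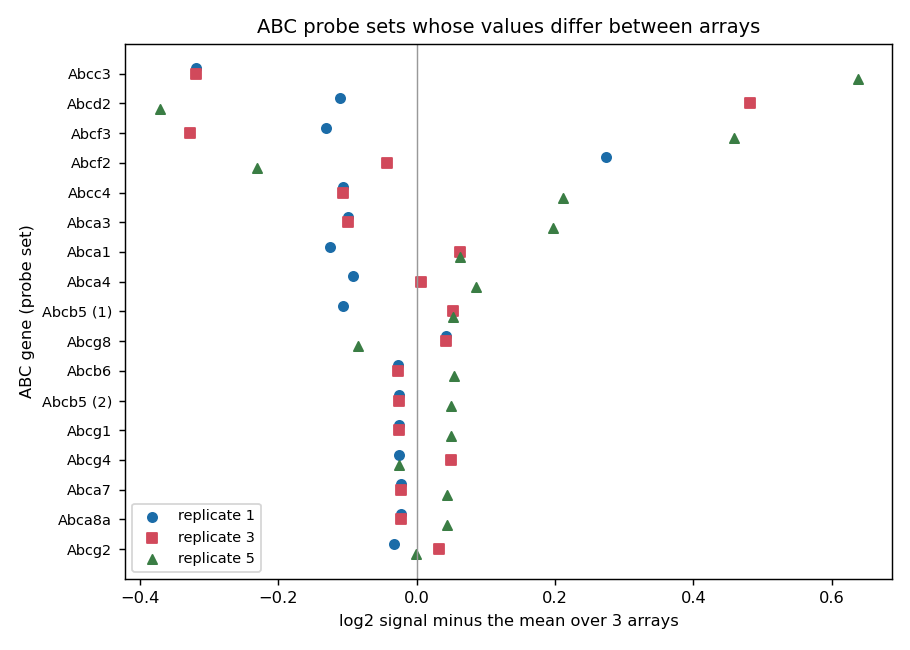
Log2 signal minus the mean over 3 arrays (horizontal axis) on replicates 1, 3 and 5 for the 17 ABC probe sets whose values differ between arrays (rows, ordered by range). Green triangles (replicate 5) lie farthest right in 10 rows, and the widest spread is that of Abcc3, 0.96 on the log2 scale.

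Genes around the ABC transporters were taken from lists, whose counts are to be read against the 15.8% of all single-gene probe sets above 100, the 72.5% below and the 11.6% neither. Of the ABC genes whose symbols do not follow the pattern, Tap1 and Tap2, which carry peptides to MHC class I, were called neither. Tap1 had 7.79, 5.93 and 6.11, with replicate 1 far over the others, and Tap2 7.15, 6.93 and 6.87. Both were above the olfactory receptor level (adjusted p = 0.0204 and 0.0004 by limma), as were 44.4% of all single-gene probe sets. The chloride channel gene Cftr was below, at 2.95 on each array.

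Of 14 measured genes that regulate ABC genes, 3 were above 100, 10 below and 1 neither (Srebf2 at 6.44), near the shares over all probe sets (15.8%, 72.5% and 11.6%). The dioxin receptor gene Ahr had 7.41, 7.37 and 7.41, its partner Arnt 7.10 on each array, and the oxidative stress factor Nfe2l2 9.57, 9.19 and 9.69, all over the level on every array. Among those below were the oxysterol receptor gene Nr1h3 at 4.42 and its dimer partners Rxra at 6.03 ± 0.12 and Rxrb at 4.78. Against the olfactory receptor level Rxra was above, Rxrb neither and Nr1h3 below. Nr1h2 was not analysed here.

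Of 12 measured partners and lipid acceptors 2 were above 100, 5 below and 5 neither, where 15.8%, 72.5% and 11.6% of all probe sets were. The phospholipid transfer protein gene Pltp had 8.27, 8.93 and 8.54, and Npc2, which hands cholesterol out of lysosomes, 7.44, 7.44 and 7.96. Apoe, an acceptor of exported cholesterol, was called neither at 6.76 ± 0.15, as were Npc1 at 6.74, Scarb1 at 6.53 ± 0.27, Tapbp at 6.71 and Pex19 at 6.64 ± 0.57. Apoa1 was below at 5.75 ± 0.03. The channel genes Kcnj8 and Kcnj11, partners of Abcc9 and Abcc8, were below at 4.73 ± 0.01 and 5.68. Against the olfactory receptor level Apoa1 and Kcnj11 were above and Kcnj8 was neither.

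Of 9 measured solute carriers that work beside ABC pumps 1 was above 100, 7 below and 1 neither, again near the shares over all probe sets. The prostaglandin transporter gene Slco2a1 had 9.71, 10.20 and 10.42 and was above on all arrays, and the nucleoside transporter gene Slc29a1 was at 6.65, neither. The tubular carriers of organic anions Slc22a6 and Slc22a8 were below at 4.50 and 4.98, and the organic cation carrier Slc22a2 at 4.66 ± 0.09.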

How the data were processed

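Sorted Tie2-GFP cells of 1 kidney gave the RNA of each of 3 arrays, after 1 round of amplification. The values are log2 signals per probe set deposited by the authors. Per the labels the arrays were processed with Affymetrix Expression Console (version not stated), while RMA is the method named in the paper. The set of arrays normalized at the same time is unknown, and the deposited log2 scale need not be the raw scale of the study's filter of 100. The values run from 1.39 to 14.40, with medians of 4.85, 4.80 and 4.79 on replicates 1, 3 and 5. The number of arrays limits the precision.

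Of 35557 probe sets, 21789 name 1 gene in the platform annotation, 1621 name several and 12147 are not named there. All 49 ABC probe sets matched RefSeq (GRCm38.p6) by Entrez identifier with the same symbol. None of the probe sets naming several genes held an ABC gene of the pattern. No other column of values was present.

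An intercept was fitted to the 3 arrays of the 1 group with limma (version 3.58.1, R 4.3.3), and the mean was tested two-sided against log2 of 100, with Benjamini-Hochberg adjustment over 21789 probe sets and a threshold of 0.05. Because 54.1% of them had identical values on all arrays, the variance prior was taken from the 4406 with 3 distinct values (prior SD 0.288, 2.03 degrees of freedom). A probe set with identical values is thereby given a spread that its own values do not show. The fit was tested on simulated data. Alternatives were the default prior, a prior with a trend, the olfactory receptor level, arrays shifted to the same median, a filter on dim probe sets, each array left out, and the mean of a gene's probe sets. Background correction and slide could not be varied.

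Every ABC gene could be named. Array values were to be given for those above or neither or with a range over 1, and whatever the level for Abcb1a, Abcb1b, Abcb4, Abcg2, Abca1, Abcg1, Abcc1, Abcc4, Abcc9 and Abcb11. Those of other ABC genes were added after their values were seen. List members above or neither are named, with up to 3 of those below in list order, and single cell type markers were picked after their values were seen. Members, lists and tests were chosen with earlier results of these data known. The grouping by role, the promoter windows and the motifs were chosen after the data were seen.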

Additional observations from a re-analysis of the deposited data

How the results depend on the processing

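At the olfactory receptor level 14 ABC probe sets and 14 ABC genes were above, 24 and 23 below and 11 and 11 neither, and of all single-gene probe sets 9680 were above, 7889 below and 4220 neither. The sign of the difference from the level then turned, by construction, for 15 members: Abca7 1.07, Abcd4 0.59, Abcc4 1.52, Abcc1 0.88, Abcf3 1.31, Abcc5 1.30, Abca3 1.31, Abcg1 1.23, Abcc10 0.21, Abca2 0.30, Abcd3 1.34, Abca1 1.43, Abcc6 0.26, Abcb10 0.30 and Abcg4 0.25 on the log2 scale. With dim probe sets left out, 12 ABC and 5856 of all probe sets were below 100, because fewer were tested. With arrays shifted to the same median, 1674 of all probe sets were neither, and 1 ABC probe set (Abcc3) had a range over 1. Without replicates 1, 3 and 5 in turn, 844, 474 and 810 of all probe sets had a range over 1, against 1248, with fewer arrays to differ. In the same fits between 2 and 3 ABC probe sets were above 100 and between 41 and 43 below. Abca1 was below 100 with the default prior (adjusted p = 0.031), without replicate 3 (adjusted p = 0.0418) and with shifted arrays. Abcg2 and Abce1 were above 100 in all these alternatives that tested against 100, and above the olfactory receptor level where that was the level tested. A signal near the olfactory receptor level cannot be told from background. No paired analysis was possible because there is 1 group.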

Other observations

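Different ABC genes shared a value to the last digit. Abca6 and Abca13 were both at 3.30 on all arrays, Abca17 and Abcc8 at 4.60, and Abca2 and Abcb10 at 5.15. Of all single-gene probe sets, 182, 132 and 78 had identical values on all arrays at these 3 values. On replicates 1, 3 and 5 the 21789 probe sets held 9419, 9823 and 9310 different values, and 62.9%, 60.9% and 63.4% shared theirs with another probe set. Of the 49 ABC probe sets 37, 40 and 37 did. Replicates 1 and 3 had the same value for 41 of 49 ABC probe sets (83.7%), replicates 1 and 5 for 33 and replicates 3 and 5 for 34, where the shares over all probe sets were 61.2%, 65.2% and 61.7%. The cause of these ties was not tested.

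ABC genes that lie next to each other in RefSeq's order of protein-coding genes formed 5 groups. Abcb1a, Abcb1b and Abcb4 on chromosome 5, Abcg5 and Abcg8 on chromosome 17, Abca14 to Abca16 on chromosome 7 and the 5 genes of chromosome 11 were below the olfactory receptor level throughout. The share below it over all single-gene probe sets was 36.2%. Of the other group, on chromosome 17, Abca3 was above that level at 6.16 and Abca17 was neither at 4.60.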
